A study of Mus musculus with 14 samples.

Results

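The 10 genes described here mark the pericentral zone of the liver lobule or answer to Wnt signalling, and their expression was followed in male and female CD-1 mouse liver at ages of 3, 4 or 8 wk: Glul, Oat, Slc1a2, Rhbg, Cyp2e1, Cyp1a2, Tbx3, Axin2, Lgr5 and Rnf43. They were chosen by name, as every gene of this list whose RefSeq accession is carried by a probe, and all 10 had at least 1 probe. The 10 genes had 14 of the 39429 probes on the array and were 10 of 19751 named genes. The groups are written M3, M4 and M8 for male liver at 3, 4 and 8 wk, and F3, F4 and F8 for female liver at the same ages. Mice of all 6 groups were of the outbred CD-1 strain and carried no transgene or treatment that the labels name, and each RNA sample was a pool of 5 livers at 3 wk or of 6 livers at 4 and 8 wk. The 7 comparisons were hybridized on 2-colour Agilent arrays, 2 arrays each with separate pools and exchanged dyes. Male was set against female liver at each age (M3/F3, M4/F4, M8/F8), and 8 wk against 3 and 4 wk in males (M8/M3 and M8/M4) and likewise in females (F8/F3 and F8/F4). A ratio is given as log2 of the first group over the second, so that a positive value is higher expression in male liver or at 8 wk.

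Liver metabolism is divided along the lobule. Hepatocytes around the portal tracts carry out gluconeogenesis and urea synthesis, and the hepatocytes around the central vein take up the remaining ammonia, make glutamine and hold much of the drug-metabolising cytochrome P450. Wnt ligands and R-spondins released by the endothelium of the central vein act through beta-catenin and TCF/LEF factors in the neighbouring hepatocytes, where they maintain the pericentral program and also induce feedback genes such as Axin2, Lgr5 and Rnf43. Glutamine synthetase is confined to the innermost ring of these cells, and Oat, Slc1a2 and Rhbg are found with it.

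The arrays measured each gene in RNA of the whole liver. Therefore fewer pericentral cells and less RNA per pericentral cell cannot be told apart. The Y-linked genes Ddx3y, Uty and Eif2s3y gave log2 ratios of 5.80 to 8.02 on the 6 arrays of male over female liver, and Xist, transcribed from the inactive X chromosome, gave ratios between -6.67 and -5.10, as the sexes in the labels require. The hepatocyte markers Alb, Apoa1 and Ttr were well above background in every comparison. Between 55.2% and 77.2% of the spots in a channel were well above background, and no spot was saturated. Both ends of this range were M4 channels of M4/F4, 77.2% on its first array and 55.2% on its second, which also had the fewest (5057) and the most (12840) spots with a ratio of exactly 0. Without either of these arrays Oat, Slc1a2 and Rhbg still passed the test at 4 wk, and Lgr5 did not without the first. The best probe of each of the 10 genes was well above background in all 28 channels. The number of arrays limits the precision.

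Of the 10 genes, Oat, Slc1a2 and Cyp2e1 passed the test in more than 1 comparison. The sequences that bear on them are shown first. The Slc1a2 values come from a probe of 60 bases, which is printed because a second Slc1a2 probe, for another RefSeq transcript, gave its own ratios.
Slc1a2 probe A_55_P1955412: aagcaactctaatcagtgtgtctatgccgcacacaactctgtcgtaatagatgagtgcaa
The 250 bases before the start site in RefSeq (build GRCm38.p6) are printed for the 3 genes to show which of them hold the core letters of a TCF/LEF site, CTTTGA, on either strand (TCAAAG on the other), in capitals.
Slc1a2 (chr2:102706188-102706437, + strand): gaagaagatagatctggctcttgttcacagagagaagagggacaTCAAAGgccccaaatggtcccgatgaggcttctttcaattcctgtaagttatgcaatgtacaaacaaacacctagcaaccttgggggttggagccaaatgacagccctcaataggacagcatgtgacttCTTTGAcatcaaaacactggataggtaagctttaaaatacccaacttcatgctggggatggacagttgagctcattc
Oat (chr7:132576399-132576648, - strand): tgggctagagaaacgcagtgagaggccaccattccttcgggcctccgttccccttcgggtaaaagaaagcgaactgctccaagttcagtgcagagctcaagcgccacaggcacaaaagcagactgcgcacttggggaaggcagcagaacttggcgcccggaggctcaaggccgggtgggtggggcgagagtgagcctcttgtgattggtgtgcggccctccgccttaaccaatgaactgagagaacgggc
Cyp2e1 (chr7:140763569-140763818, + strand): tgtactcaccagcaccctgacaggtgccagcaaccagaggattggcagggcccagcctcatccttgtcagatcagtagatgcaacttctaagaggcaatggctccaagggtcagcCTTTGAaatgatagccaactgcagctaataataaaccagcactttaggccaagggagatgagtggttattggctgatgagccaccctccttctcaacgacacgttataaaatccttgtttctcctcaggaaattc
Promoter windows of 300 bases, 250 before and 50 after the start, were held for 7 of the 10 genes; Rhbg, Lgr5 and Tbx3 were not among them. CTTTGA was found in the windows of 3 of the 7, Slc1a2, Cyp2e1 and Cyp1a2, against 16% of all 32851 windows. The 2 Slc1a2 matches begin 206 and 77 bases before the start, and the Cyp2e1 match 135 bases before it. The longer form CTTTGAT, which contains CTTTGA, was found in 3.73% of all windows and, of the 7 genes, in Slc1a2. The windows of Oat, Glul, Axin2 and Rnf43 did not hold these letters. A match of letters is a description of the sequence and not a binding site.

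In RNA of the whole liver each of the 10 genes was lower in males than in females at 4 wk as a fitted ratio, and 4 of them passed the test. A gene was called down or up regulated where 1 group or both passed the background condition on the 2 arrays, the adjusted p was below 0.05, and the ratio exceeded 1.5 or lay under 0.667. At 4 wk Oat, Slc1a2, Rhbg and Lgr5 were down regulated in male liver, 4 of 10, where 0.971% of the 13083 genes tested were lower in males and 0.611% were higher. The median of the 10 genes in M4/F4 was -0.63 and that of all genes tested was 0. Both arrays of M4/F4 gave a ratio below 0 for all 10 genes, and for 29.4% of all genes tested. At 8 wk 2 of the 10, Oat and Slc1a2, were lower in male liver, where 3.74% of genes were lower and 2.65% were higher. At 3 wk none of the 10 passed, where 0.337% of genes were lower and 0.18% higher in males; by limma's test, Oat and Lgr5 had an adjusted p below 0.05 at 3 wk with ratios under the fold threshold. The 10 genes had a fitted ratio below 0 at 3 wk (median -0.23, highest -0.03) and at 8 wk (median -0.30, highest -0.02) too, as did 50.5% and 50% of the genes tested. Both arrays were below 0 for 7 of the 10 at 3 wk and for 8 at 8 wk, against 25.8% and 33.8% of genes.

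**Figure D1:**
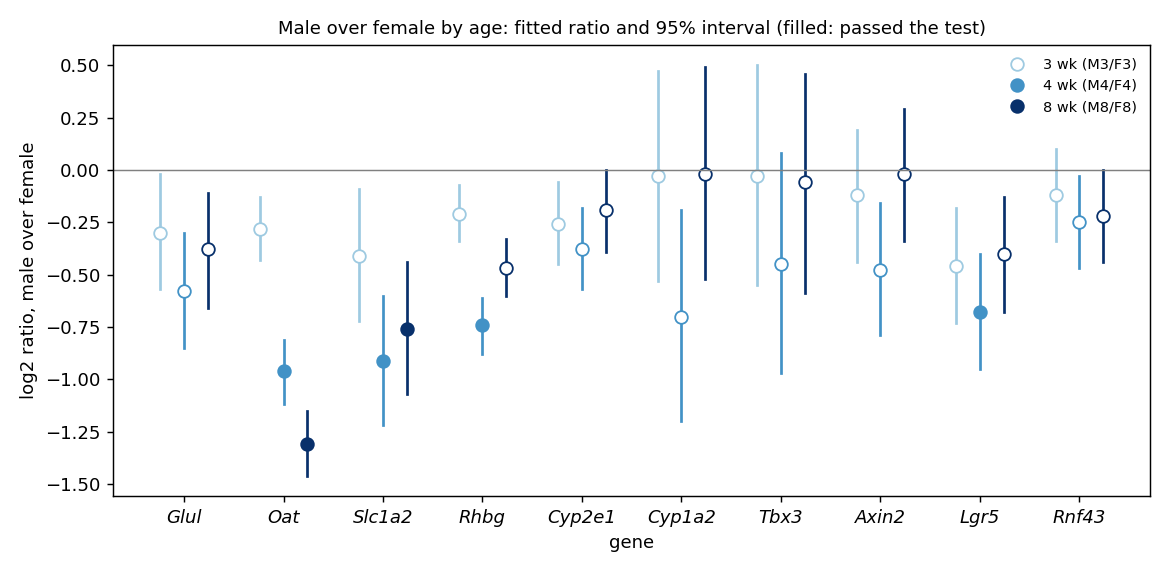
Fitted log2 ratio of male over female liver (vertical axis) for each of the 10 genes (horizontal axis) at 3, 4 and 8 wk, with bars for the 95% interval of the fit and filled points where the test was passed. Every point lies below 0. Oat moved from -0.28 at 3 wk to -1.31 at 8 wk, and Lgr5 was lowest at 4 wk with -0.68.

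Of the 4 genes of ammonia, glutamate and glutamine handling, Oat, Slc1a2 and Rhbg were called at 4 wk and Glul was not. Oat, ornithine aminotransferase, which links ornithine to glutamate, gave log2 ratios of -0.39 and -0.17 on the 2 arrays of M3/F3, of -1.01 and -0.91 in M4/F4, and of -1.33 and -1.28 in M8/F8. The 2 arrays of each age gave the same direction and the arrays of the 3 ages did not overlap. The fitted ratio was -0.28 (SE 0.06, adjusted p = 0.0306) at 3 wk, -0.96 (SE 0.06, adjusted p = 0.000333) at 4 wk and -1.31 (SE 0.06, adjusted p = 0.000143) at 8 wk. Oat was thus 1.95-fold lower in male liver at 4 wk and 2.47-fold lower at 8 wk.

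Slc1a2, the glutamate transporter of the GLT-1 type, gave ratios of -0.43 and -0.39 in M3/F3, -1.17 and -0.65 in M4/F4 and -0.70 and -0.82 in M8/F8. Male liver was lower on all 6 arrays, and the ratios at 4 and 8 wk overlapped. The fitted ratio was -0.41 (SE 0.13, adjusted p = 0.0962) at 3 wk, -0.91 (adjusted p = 0.00541) at 4 wk and -0.76 (adjusted p = 0.011) at 8 wk. Its second probe gave -0.75 at 4 wk and -0.93 at 8 wk, and both passed the test. Without the second array of M8/F8 the main probe did not pass at 8 wk (adjusted p = 0.103). The remaining Slc1a2 probe was not well above background in any channel and was not used.

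Rhbg, an ammonium transporter of the Rhesus family, gave ratios of -0.17 and -0.24 in M3/F3, -0.78 and -0.71 in M4/F4 and -0.42 and -0.51 in M8/F8. The arrays of the 3 ages did not overlap, with the lowest ratios at 4 wk. The change of the Rhbg ratio from 4 to 8 wk, M8/F8 minus M4/F4, was 0.28 and did not pass by limma's test (adjusted p = 0.212). The fitted ratio at 4 wk was -0.74 (SE 0.06, adjusted p = 0.000499), which is 1.67-fold lower expression in male liver. At 8 wk it was -0.47 (adjusted p = 0.00272), a difference past the p threshold but below 1.5-fold. Glul, glutamine synthetase, gave -0.25 and -0.35 in M3/F3, -0.81 and -0.34 in M4/F4 and -0.51 and -0.26 in M8/F8. Its 6 arrays were all below 0 and the ages overlapped. The fitted ratio at 4 wk was -0.58 (95% interval -0.85 to -0.30, adjusted p = 0.0181), or 1.49-fold, so that Glul was just short of the fold threshold and was not called. Without the second array of M4/F4 its fitted ratio was -0.80, past the fold threshold.

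Neither cytochrome passed the test by sex. Cyp2e1, which oxidises ethanol and acetaminophen, gave ratios of -0.12 and -0.39 in M3/F3, -0.23 and -0.52 in M4/F4 and -0.02 and -0.36 in M8/F8. The second array was lower than the first at each age. At 4 wk the fitted ratio was -0.38 (95% interval -0.57 to -0.18, adjusted p = 0.0252). Cyp1a2, an Ah receptor target that metabolises caffeine, gave -0.12 and 0.06 in M3/F3, -0.29 and -1.11 in M4/F4 and 0.00 and -0.03 in M8/F8. The spread between the arrays at 4 wk was larger than at the other ages, and the fitted ratio of -0.70 (SE 0.21) had an adjusted p of 0.0789. This 1.62-fold difference was past the fold threshold, and it passed the test with normexp and loess correction (adjusted p = 0.0287), with 6 group means (adjusted p = 0.0117) and by the error-weighted mean.

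Of the Wnt feedback genes, Lgr5, the R-spondin receptor, gave ratios of -0.53 and -0.38 in M3/F3, -0.78 and -0.58 in M4/F4 and -0.31 and -0.50 in M8/F8. All 6 arrays were below 0. The fitted ratio at 4 wk was -0.68 (SE 0.12, adjusted p = 0.0101), 1.60-fold lower in male liver, and it did not pass without the first array (adjusted p = 0.0993) or with adjustment within the comparison (adjusted p = 0.0553). Axin2, a scaffold of the beta-catenin destruction complex, gave -0.38 and -0.57 in M4/F4, a fitted -0.48 (95% interval -0.79 to -0.16, adjusted p = 0.0587). Its ratios at the other ages lay between -0.31 and 0.12, with arrays on either side of 0. Rnf43, a ubiquitin ligase that removes Wnt receptors, gave -0.21 and -0.29 in M4/F4, and its fitted ratio of -0.25 (95% interval -0.47 to -0.03) did not pass. Tbx3, a T-box transcription factor downstream of beta-catenin in liver, gave -0.07 and -0.82 in M4/F4, and its interval of -0.97 to 0.08 spans 0.

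**Figure D2:**
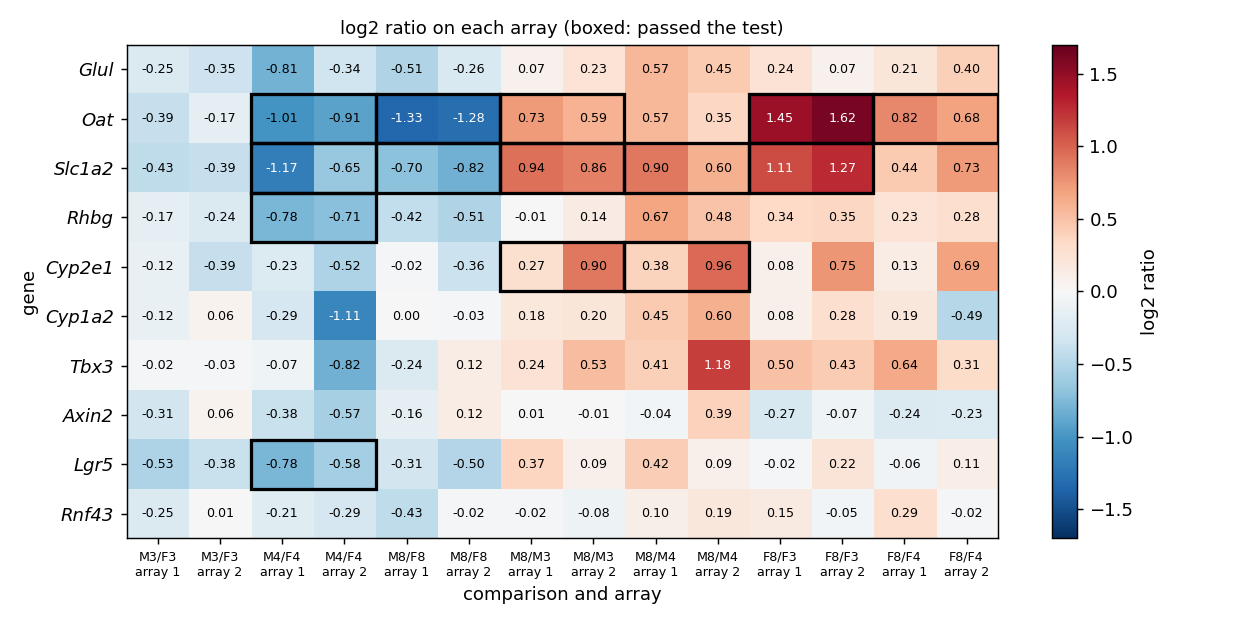
Log2 ratio of each of the 10 genes (rows) on each of the 14 arrays (columns, the 2 arrays of a comparison side by side), male over female or 8 wk over the younger age, with a black box around the comparisons that passed the test. The 2 arrays of a comparison agree in sign for every boxed value. The boxes cover 14 of the 70 pairs of a gene and a comparison.

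Between the younger ages and 8 wk, those of the 10 genes that passed the test were all up regulated. In male liver 3 of the 10, Oat, Slc1a2 and Cyp2e1, rose from 3 to 8 wk, where 7.81% of the 14450 genes tested rose and 10% fell. From 4 to 8 wk 2 of the 10, Slc1a2 and Cyp2e1, rose in males, where 4.44% of genes rose and 6.38% fell. In female liver 2 of the 10, Oat and Slc1a2, rose from 3 to 8 wk, where 5.08% of genes rose and 6.64% fell. From 4 to 8 wk 1 of the 10, Oat, rose in females, where 2.28% of genes rose and 3.72% fell. The medians of the 10 genes were 0.21 and 0.52 in male liver (from 3 wk and from 4 wk) and 0.26 and 0.28 in female liver, against 0.01 to 0.02 for all genes tested. Comparisons that share a group share its pools, so these values are given side by side and are not independent of each other.

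Oat gave ratios of 0.73 and 0.59 in M8/M3 and of 1.45 and 1.62 in F8/F3. The rise from 3 wk was larger on both female arrays than on both male arrays. The fitted ratio was 0.66 in males (SE 0.06, adjusted p = 0.00124), or 1.58-fold, and 1.54 in females (SE 0.06, adjusted p = 9.97e-05), or 2.90-fold. The difference itself was -0.88 (M8/M3 minus F8/F3, SE 0.09, adjusted p = 0.00609). Of 14904 genes tested, 3.35% were called in this contrast in either direction, and Oat was the 1 of the 10 that was called. It was not called by the error-weighted mean with the study's p threshold. M8/M3 and F8/F3 were scanned on different days. The same difference read on arrays of 1 scan day, as M8/F8 minus M3/F3, was -1.03 (SE 0.09, adjusted p = 0.00347). From 4 to 8 wk Oat gave 0.57 and 0.35 in males and 0.82 and 0.68 in females. The rise was 0.46 (adjusted p = 0.00472) in males, under the fold threshold, and 0.75 (adjusted p = 0.000773) in females. None of the 10 was called in the contrast of the sexes over this interval (M8/M4 minus F8/F4), where 1.31% of 15166 genes were. For Oat it was -0.29 (95% interval -0.51 to -0.07, adjusted p = 0.231).

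Slc1a2 gave ratios of 0.94 and 0.86 in M8/M3 and 0.90 and 0.60 in M8/M4. In female liver its ratios were 1.11 and 1.27 for F8/F3, and 0.44 and 0.73 for F8/F4. All 8 arrays were above 0. The fitted rises were 0.90 (adjusted p = 0.00558), 0.75 (adjusted p = 0.0115), 1.19 (adjusted p = 0.00193) and 0.58 (adjusted p = 0.0289), and the last was just under the fold threshold. Without the first array of M8/M3 or of M8/M4 these male rises did not pass (adjusted p = 0.0529 and 0.121). The second probe gave 0.75 in F8/F4 (adjusted p = 0.00893) and passed. The female rise from 3 to 8 wk was 2.28-fold and the male rise 1.87-fold. Their difference was -0.29 (95% interval -0.73 to 0.16), which spans 0. The second probe gave -0.59 for it (SE 0.18), with a 95% interval that lay below 0, and did not pass after adjustment (adjusted p = 0.133).

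Cyp2e1 gave ratios of 0.27 and 0.90 in M8/M3 and 0.38 and 0.96 in M8/M4. The female ratios were 0.08 and 0.75 for F8/F3, and 0.13 and 0.69 for F8/F4. The 2 arrays of a comparison carry exchanged dyes, and the second array gave the higher ratio each time. The dye term of this probe was 0.24 on the log2 scale, the largest size among the main probes of the 10 genes. With the dye term the fitted rises were 0.59 (adjusted p = 0.00466) in M8/M3, at the fold threshold, and 0.67 (adjusted p = 0.00282) in M8/M4. Without it the fitted values were the same, 0.59 and 0.67, and neither passed (adjusted p = 0.19 and 0.138). The M8/M3 rise also missed the call with normexp and loess (0.53), with 6 group means (0.56), by the error-weighted mean (0.57) and without its second array (0.50, adjusted p = 0.0553). The female rises of 0.42 and 0.41 were past the p threshold (adjusted p = 0.0174 and 0.019) but not the fold threshold. A second Cyp2e1 probe gave 0.61 and 0.63 in the 2 male comparisons and a dye term of 0.26.

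The other 7 genes were not called in any age comparison. Rhbg gave 0.67 and 0.48 in M8/M4, and its fitted 0.58 (adjusted p = 0.00122) was 1.49-fold, under the fold threshold. Its ratios in M8/M3 were -0.01 and 0.14. Glul gave 0.57 and 0.45 in M8/M4, a fitted 0.51 (adjusted p = 0.0287), and 0.07 and 0.23 in M8/M3. Tbx3 gave 0.41 and 1.18 in M8/M4, a fitted 0.80, the highest of the 10 genes in that comparison, with a wide interval of 0.27 to 1.32 (adjusted p = 0.0591). It passed under 5 alternatives, among them adjustment within each comparison (adjusted p = 0.0442). Its 8 age arrays were all above 0. The 3 Wnt feedback genes gave fitted ratios between -0.24 and 0.25 in the 4 age comparisons, and their intervals lay within -0.55 and 0.53. Axin2 was between -0.27 and 0.39 on single arrays, and Rnf43 between -0.08 and 0.29. Cyp1a2 gave -0.49 on the second array of F8/F4 and values of 0.08 to 0.60 on the other 7 age arrays.

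Male liver at 4 wk was the lowest of the 6 groups for 8 of the 10 genes, and female liver at 8 wk the highest for 8. Of the 12850 genes above background in all 7 comparisons, M4 was the lowest group for 10.6% and F8 the highest for 21.2%. These levels are normalised log2 intensities of a pool, averaged over the 2 or 3 arrays that carried it, with 2 pools a group, and they compare groups within a gene only. Oat was at 13.36 ± 0.06 (SD) in M3, 13.58 ± 0.06 in M4, 13.67 ± 0.19 in F3, 14.05 ± 0.10 in M8, 14.53 ± 0.10 in F4 and 15.30 ± 0.22 in F8. Of the neighbours in this order, the pools of M4 and F3 overlapped and the others did not. Slc1a2 had its lowest level in M3, which stood at -1.74 relative to F8, followed by M4 (10.89 ± 0.10), F3 (11.18 ± 0.09), M8 (11.63 ± 0.12), F4 (11.83 ± 0.26) and F8 (12.43 ± 0.07). The pools of M8 and F4 overlapped and the other neighbours did not. The range from the lowest to the highest group was 3.84-fold for Oat, 3.32-fold for Slc1a2 and 2.11-fold for Rhbg.

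Rhbg was at 9.02 ± 0.06 in M4 and at 9.49 ± 0.06 in M3, 9.56 ± 0.12 in M8, 9.73 ± 0.08 in F3, 9.84 ± 0.15 in F4 and 10.10 ± 0.14 in F8. The pools of M4 lay below those of every other group. Glul was likewise lowest in M4, at 14.57 ± 0.11, and its other 5 groups lay between 15.02 ± 0.08 and 15.28 ± 0.04. Of those, F8 stood above F3, and the pools of F3, M8, F4 and M3 overlapped between neighbours. Lgr5 had the 3 female groups at 10.13 ± 0.01 to 10.23 ± 0.25 and the 3 male groups at 9.55 ± 0.14 to 9.83 ± 0.04, with no overlap between a female and a male pool. Tbx3 was at 12.03 ± 0.03 in F8 and 11.96 ± 0.20 in M8, above the 4 younger groups at 11.15 ± 0.38 to 11.59 ± 0.18. Cyp2e1 ranged 1.39-fold, Axin2 1.38-fold and Rnf43 1.30-fold over the 6 groups, with most neighbours overlapping. The Cyp2e1 range, 0.48 in log2, was under the fold threshold. It was also smaller than the fitted Cyp2e1 rises of 0.59 in M8/M3 and 0.67 in M8/M4, so the levels did not bear out those 2 calls. Cyp1a2 pools of F4 lay far apart, at 13.12 and 13.97, and the M4 level of 12.81 ± 0.04 was below the pools of all other groups.

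Both male pools lay below both female pools at 4 wk for 9 of the 10 genes, all but Cyp2e1, and this was so for 22.5% of the genes tested. At 3 wk it was so for 6 of the 10 and for 16.9% of genes, and at 8 wk for 6 of the 10 and 27.2% of genes.

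**Figure D3:**
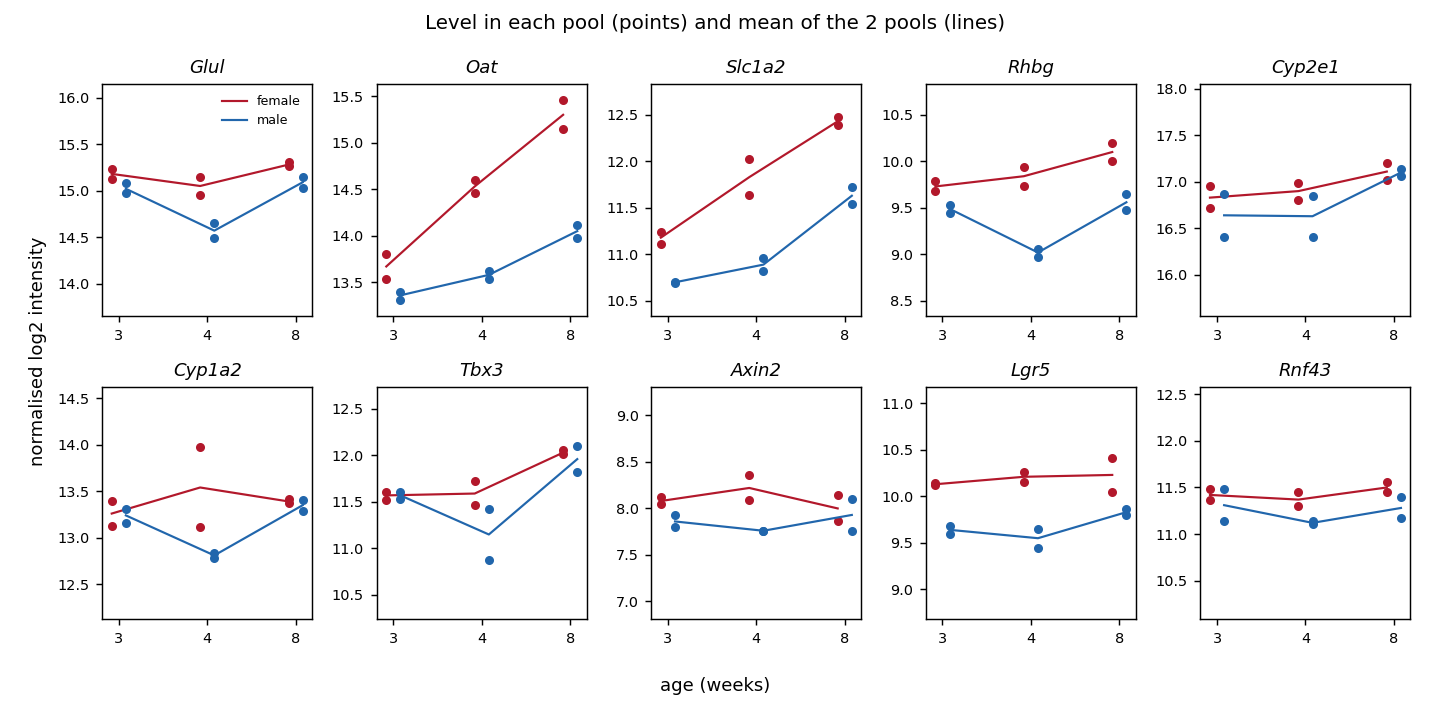
Normalised log2 intensity (vertical axis, 1 panel a gene, each spanning the same range of log2 units) at 3, 4 and 8 wk (horizontal axis) in female (red) and male (blue) liver, with a point for each of 2 pools and lines through their means. Oat and Slc1a2 rose with age in both sexes, with F8 at 15.30 and 12.43. The blue line of Rhbg and Glul dips at 4 wk to 9.02 and 14.57.

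The step from 3 to 4 wk was read through the 8 wk pools that the age comparisons share. M8/M3 and M8/M4 were scanned on different days, and F8/F3 and F8/F4 on the same day. None of the 10 genes was called in males (M8/M3 minus M8/M4, which is M4 over M3), where 0.295% of genes were, or in females (F8/F3 minus F8/F4), where 0.0945% were. The largest value in males was a Rhbg log2 ratio of -0.51 (SE 0.08, adjusted p = 0.0671). In females it was Oat with 0.78 (SE 0.09, 95% interval 0.57 to 1.00, adjusted p = 0.0501), followed by Slc1a2 with 0.61 (adjusted p = 0.325). Oat passed in this contrast when the shared pools entered the covariance of the fit (adjusted p = 0.0229). The change of the sex difference between 3 and 4 wk, M4/F4 minus M3/F3, was -0.68 for Oat (adjusted p = 0.147) and -0.54 for Rhbg (adjusted p = 0.174). Neither passed. Between 4 and 8 wk, M8/F8 minus M4/F4 passed for none of the 10 genes by limma's test. It was -0.34 for Oat (adjusted p = 0.179) and 0.28 for Rhbg (adjusted p = 0.212), so a narrower sex difference after 4 wk was not shown.

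Of 11 other pericentral hepatocyte genes, 1 was down regulated in males at 3 wk, 3 at 4 wk and 8 at 8 wk, and none was up regulated by sex. The gene called at 3 wk was Cyp2c37 (-0.40 and -0.81, adjusted p = 0.0482). Their median was -0.54 in M4/F4 and -0.93 in M8/F8. Cyp2c37, a P450 of arachidonic acid metabolism, also had the largest value in M8/F8, with ratios of -2.94 and -3.09, or 8.09-fold lower in males (adjusted p = 0.000164). Cyp7a1, the rate-limiting enzyme of bile acid synthesis, gave -1.81 and -1.41 (adjusted p = 0.00327), and Cyp2c50 gave -1.06 and -1.29 (adjusted p = 0.00171). Lect2, a hepatokine, fell in males from 3 to 8 wk with ratios of -1.16 and -1.23 (adjusted p = 0.00113). With age 5 of these 11 genes fell and 1 rose in M8/M3 (median -0.42), and 2 fell and 2 rose in M8/M4 (median -0.26). In females 4 rose and none fell in F8/F3 (median 0.19), and 1 rose and none fell in F8/F4 (median 0.11). In the contrast itself, M8/M3 minus F8/F3, 4 of the 11 were called lower and none higher.

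Of 14 periportal hepatocyte genes 1 was called at 3 wk, Pck1, an enzyme of gluconeogenesis, with ratios of -1.21 and -1.18 (2.29-fold lower in males, adjusted p = 0.0123). None was called at 4 wk, but 11 had a fitted ratio below 0 (median -0.25), as did 49.1% of all genes tested. At 8 wk 2 were lower and 1 was higher in males (median -0.47). Cyp2f2, a P450 of the portal zone, was that gene, and it also had the largest age change of the list, with ratios of 1.84 and 2.40 in M8/M3 (4.36-fold, adjusted p = 0.000218). Pck1 rose 2.56-fold in M8/M3 (1.13 and 1.58, adjusted p = 0.00753). Sds, serine dehydratase, rose 2.37-fold in F8/F3 (1.07 and 1.42, adjusted p = 0.0129). Hsd17b13, a lipid droplet protein, fell in M8/M4 with ratios of -0.83 and -1.64 (adjusted p = 0.031). From 3 to 8 wk 4 of the 14 rose and none fell in males, and 6 rose and 1 fell in females. From 4 to 8 wk 1 rose and 2 fell in males, and 1 rose and none fell in females.

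**Figure D4:**
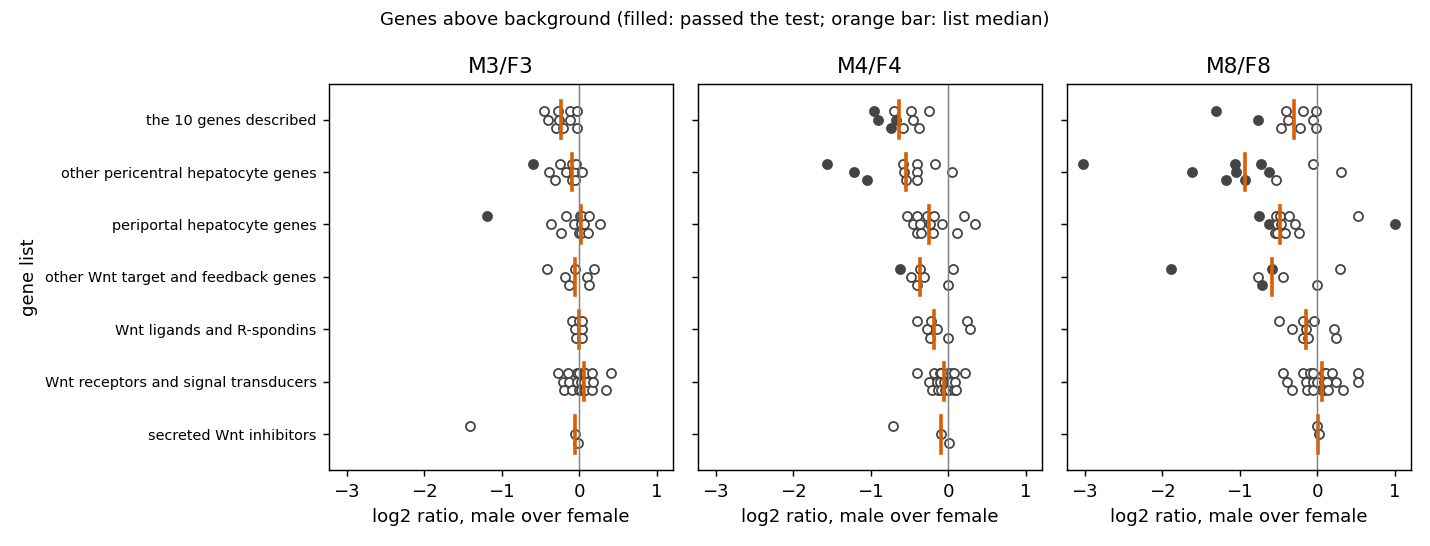
Fitted log2 ratios of male over female liver (horizontal axis, common to the 3 panels) at 3, 4 and 8 wk for the genes of each list that were above background (rows), with filled points where the test was passed and an orange bar at the median. The 10 genes have medians of -0.23, -0.63 and -0.30, and the other pericentral genes -0.10, -0.54 and -0.93.

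Other Wnt target and feedback genes were measured for 7 of 10. In M4/F4 1 of the 7 was lower in males, and in M8/F8 3 were, with medians of -0.36 and -0.59. Nkd1, a negative regulator of Dishevelled, gave -0.83 and -0.59 in M8/F8 (adjusted p = 0.000417). Ccnd1, cyclin D1, fell 4.35-fold in M8/M3 with ratios of -2.15 and -2.09 (adjusted p = 0.00357). Sp5 rose in M8/M4 (0.59 and 0.78, adjusted p = 0.00211), as did Tnfrsf19, a receptor of the TNF family (1.49 and 1.38, adjusted p = 0.00215). In M8/M3 1 of the 7 rose and 1 fell (median -0.29), and in M8/M4 2 rose and 1 fell (median -0.06). In females none of the 7 was called in F8/F3 (median 0.11), and 1 rose and none fell in F8/F4 (median 0.11). That gene was Tnfrsf19 (0.94 and 0.95, adjusted p = 0.0106).

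Upstream of these targets, no Wnt ligand, R-spondin, receptor or transducer passed the test in a sex comparison. Rspo3, an R-spondin of the central vein, was past the p threshold but not the fold threshold, with -0.49 and -0.31 in M4/F4 (a fitted -0.40, adjusted p = 0.00028) and -0.24 and -0.06 in M8/F8 (a fitted -0.15, adjusted p = 0.00994). Of 23 ligands and R-spondins 7 to 9 were above background in the sex comparisons and 11 or 12 in the age comparisons. Wnt9b, a ligand of the central vein endothelium, rose in male liver, with ratios of 0.94 and 1.03 in M8/M4 (1.98-fold, adjusted p = 0.000671). Wnt5a fell 2.21-fold in M8/M3 (-0.91 and -1.38, adjusted p = 0.0248). On the 2 arrays of M8/M4 Wnt10a was well above background in M8 and not in M4, and was at least 1.60-fold higher in M8 (adjusted p = 0.0359). On the 2 arrays of F8/F3 Wnt6 was not well above background in F8, and was at least 1.30-fold higher in F3 (adjusted p = 0.00645). Such bounds set the dim group at the lowest signal well above background on its array. Of 28 receptors and transducers 25 were tested in each age comparison. In males 4 rose and 2 fell in M8/M3, and 2 rose and none fell in M8/M4. In females 1 rose and 2 fell in F8/F3, and none rose and 1 fell in F8/F4. Each gene named here is given only in the comparison of its largest called ratio. Lgr4, which like Lgr5 binds R-spondins, rose 1.89-fold in F8/F3 (0.90 and 0.94, adjusted p = 0.0105). Bcl9l, a co-activator of beta-catenin, rose 2.15-fold in M8/M4 (0.97 and 1.23, adjusted p = 0.00452). The Frizzled receptor Fzd3 fell in F8/F3 (-1.38 and -1.75, adjusted p = 0.00608). Fzd2 was called lower in M8/M3 (adjusted p = 0.00687), with ratios of -1.16 and -0.83, but M8 was well above background for it on only 1 of the 2 arrays.

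Secreted Wnt inhibitors were near background in most groups, and 2 to 7 of 11 could be tested. Dkk4 is an antagonist of the Wnt co-receptors. On the 2 arrays of M8/M4 it was well above background in M8 and not in M4, and was at least 2.93-fold higher in M8 (adjusted p = 0.00375). In M8/F8 only 2 inhibitors could be tested, and neither was called. Sfrp2 went the other way, at least 1.54-fold higher in M4 than in M8 (adjusted p = 0.0448), with measured ratios of -2.70 and -0.83 that lay far apart and rest on M8 signals not well above background on either array.

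Some other transcripts moved with the same groups. Of 5 macrophage markers all had ratios below 0 in the 3 sex comparisons, with medians of -0.26, -0.32 and -0.59, and 1 was called at 4 wk and 3 at 8 wk. Of 6 endothelial markers none was called by sex, and their medians lay between -0.11 and -0.07. The hepatocyte markers had medians of 0.11, -0.03 and 0.01 by sex, and those of stellate cells 0.07, -0.30 and -0.27. Bile duct markers had medians of 0.21, 0.35 and 0.22, with none called by sex, and lymphocyte markers -0.08, -0.14 and -0.23, with 1 called at 8 wk. The 4 genes of dividing cells had medians of 0.40, 0.21 and -0.15 by sex, all 4 with a ratio above 0 at 3 wk, and 1, Top2a, was called lower in males at 8 wk (-0.40 and -1.83, adjusted p = 0.0386). With age these 4 genes fell in each comparison, with medians between -3.53 and -2.85. Of 3 erythroid markers 2 fell in each of the 4 age comparisons, Slc4a1 among them, and the medians lay between -1.93 and -1.60. Alas2, of haem synthesis, rose in both male age comparisons. It was higher in males at 4 wk (0.70 and 0.86, adjusted p = 0.0199) and at 8 wk (1.78 and 1.99, adjusted p = 0.000725). Of the macrophage markers 2 of 5 fell in each male age comparison and 1 in each female one, and of the bile duct markers 2 of 4 fell in M8/M3 and 1 in each of the others. Of the endothelial markers 1 of 6 fell in M8/M3, M8/M4 and F8/F3, and 1 of 3 hepatocyte markers and 1 of 3 lymphocyte markers fell in both male age comparisons. Of 4 stellate cell markers 1 fell in M8/M3. Clock genes changed with age too, with 3 up and 1 down of 8 in M8/M3 and 3 up and 3 down in F8/F4, among them Dbp, Tef and Nr1d1 up and Cry1 down in all 4 age comparisons. The part of these transcripts in the results on the 10 genes was not tested.

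The genes whose ratios followed those of Oat, Slc1a2 and Cyp2e1 most closely over the 14 arrays were taken from 12849 others. For Oat they were Cmbl, Crybg1 and Fbxl4, each with a Pearson r of 0.99. For Slc1a2 they were H2ac18 and Sap18 (r = 0.98) and Erf (r = 0.97), and for Cyp2e1 Aspscr1 and Cyp27a1 (r = 0.97) and Gabrr1 (r = 0.95). The 14 arrays share pools and, in pairs, dye orientation, so that r describes these ratios and has no test. Among the 10 genes themselves, r was 0.95 between Oat and Slc1a2, 0.93 between Glul and Rhbg and 0.92 between Slc1a2 and Lgr5, and 0.18 between Oat and Axin2.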

How the data were processed

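Liver RNA was hybridized to 2-colour Agilent mouse arrays, and the Feature Extraction 10.7.1.1 output of the authors was used after the background was subtracted and the dyes were balanced by linear and LOWESS fits. Ratios of each spot were deposited as log10 of red over green with a log10 error, which is a modelled standard error in other units than a level, and the authors also deposited spot intensity for each channel. Ratios were converted to log2 and turned by the dyes in the labels. For M3/F3 the written methods give the dyes the other way round. Non-uniform outlier spots, at most 10 an array, were left out, and spots of 1 probe were averaged. RefSeq accessions named 26055 probes, and 13374 of 39429 had no name here.

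Ratios were fitted per probe with limma (version 3.58.1, R version 4.3.3, files read by data.table, version 1.17.8). The model held 7 comparison coefficients and a dye term. Benjamini-Hochberg adjustment ran over every probe in the 7 comparisons jointly, and over every probe separately for each contrast of comparisons. The Rosetta error model of the study was not run. Each gene was read on its brightest named probe. Levels are processed intensities of both channels after Aquantile normalization between arrays. Arrays of 1 replicate number were taken to carry the same pool of a group, which the labels do not state. The differences between numbers closed around the comparisons with r = 0.882 through 3 wk and 0.878 through 4 wk. The 14 arrays lay on 4 slides scanned on 2 days, with each comparison on 1 day.

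Of each pathway list, up to 4 called genes with the largest absolute ratio are named, all 10 genes are named whatever their values, and the 3 genes most correlated with each gene called in at least 2 comparisons. Rspo3 is named outside this rule. The genes and lists were chosen with earlier results of these data known. Cyp2a5, Tf and Hbb-b1 were without a named probe. RefSeq promoter windows are of GRCm38.p6, and no other coordinates were used, since the array design is on another build. Alternatives were normexp and loess correction, other dye, background, fold and adjustment rules, an error-weighted mean, group means, the covariance of shared pools, blocks for replicate and slide, kept outlier spots, second probes and leaving out each array.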

Additional observations from a re-analysis of the deposited data

Results flagged for a closer look

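The rise of Oat from 3 to 8 wk differed between the sexes by the test of the difference itself. The log2 ratio was 0.66 in male liver (0.73 and 0.59 on the 2 arrays) and 1.54 in female liver (1.45 and 1.62), and M8/M3 minus F8/F3 was -0.88 (limma, SE 0.09, adjusted p = 0.00609). The arrays of the sex comparisons, chosen for this after seeing the data, gave -1.03 (adjusted p = 0.00347). With the error-weighted mean of the deposited errors the value was -0.88, and it did not pass the threshold of 0.0001.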

How the results depend on the processing

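No called value of the 10 genes changed sign under the alternatives run for it or on leaving out each of 14 arrays, and 8 of the 15 called values passed throughout. Without the dye term the male rises of Cyp2e1 kept their values of 0.59 in M8/M3 and 0.67 in M8/M4 but did not pass (adjusted p = 0.19 and 0.138), which left 1 gene, Slc1a2, in M8/M4. In M8/M3 the Cyp2e1 rise also dropped under the fold threshold with normexp and loess (0.53) and with 6 group means (0.56), and it missed the threshold of 0.0001 by the error-weighted mean. By that mean 0 genes were called in M8/M3 minus F8/F3, and Oat was lost there. With adjustment within each comparison, Lgr5 was lost in M4/F4 (adjusted p = 0.0553). Without a threshold on the ratio the counts were 2 in M3/F3, 5 in M8/M4 and 4 in each female comparison (F8/F3 and F8/F4). F8/F4 had 2 genes, Oat and Slc1a2, with normexp and loess and with second probes. With 6 group means 1 gene, Cyp1a2, was called in M8/M4 minus F8/F4 and 2, Oat and Slc1a2, in F8/F3 minus F8/F4, where the covariance of shared pools called 1, Oat. Tbx3 passed in M8/M4 under 5 alternatives and Cyp1a2 in M4/F4 under 3. Leaving out 1 array gave 0 genes in M3/F3, 4 to 5 in M4/F4, 1 to 2 in M8/F8, 2 to 3 in M8/M3 and 1 to 3 in M8/M4. For females it gave 2 in F8/F3 and 1 to 2 in F8/F4. It gave 1 in M8/M3 minus F8/F3, 0 in M8/M4 minus F8/F4, and 0 to 1 in M8/M3 minus M8/M4 and in F8/F3 minus F8/F4. The lone array left was assumed to vary like the others. Calls lost were Lgr5 without M4/F4 replicate 1 (adjusted p = 0.0993), Slc1a2 without M8/F8 replicate 2 (0.103), M8/M3 replicate 1 (0.0529) or M8/M4 replicate 1 (0.121), and Cyp2e1 in M8/M3 without its replicate 2 (0.0553). The cause was not tested. Readings on the sex comparison arrays, added after seeing the data and run for the contrasts between the sexes only, called the same gene, Oat.

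The replicate numbers name separate pools, and the labels do not say that they pair the groups. Differences between numbers correlated above 0.1 in 9 of 21 pairs of comparisons (r from -0.45 to 0.82). Comparisons that share a group share its pools, so these correlations cannot show whether the numbers pair the groups. With the replicate block the counts were unchanged in each comparison (0, 4 and 2 for male over female at 3, 4 and 8 wk, 3 in M8/M3, 2 in M8/M4, and 2 and 1 in the female age comparisons), as they were with the slide as a block.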
